A study of Homo sapiens with 8 samples.

Results

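The endoplasmic reticulum (ER) stress and folding genes described here are XBP1, CREB3L2, CANX, MANF and SEL1L. They were taken by gene symbol from a deposited table of Ago2 binding peaks. They held 37 of its 22506 peaks and are 5 of its 6326 genes. CANX held 26 of the peaks, CREB3L2 held 6, SEL1L and MANF held 2 each, and XBP1 held 1.

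The study measured where Ago2, the protein that carries microRNAs to their target messages, was crosslinked to RNA in 293S cells, a line derived from human embryonic kidney cells. Emetine blocks the elongation step of translation. 1 culture was left untreated (control) and 1 received emetine at 20 μg/mL for 60 minutes, and both were adherent monolayers in the same serum-containing medium, with no genetic change named in the labels. Each culture was divided into 3 aliquots for crosslinking and immunoprecipitation (CLIP), each with an Ago2 antibody from another maker, and 1 aliquot for RNA-seq. The spread given below is therefore between aliquots and antibodies of 1 culture, and the p-values measure that spread alone.

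Proteins that enter the secretory pathway fold in the ER with the help of chaperones, and those that fail are sent back to the cytosol for degradation. When unfolded proteins collect, the sensor IRE1 removes a short intron from the XBP1 message outside the nucleus, and the spliced message encodes an active transcription factor. The other sensors, PERK and ATF6, slow translation and raise chaperone genes. The ER-membrane factor CREB3L2 is cut and released in a manner like ATF6. Calnexin (CANX) is a membrane chaperone that holds glycoproteins while they fold, MANF is a small ER protein that cells make more of under ER stress, and SEL1L is the adaptor of the HRD1 ubiquitin ligase in ER-associated degradation.

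The intron that IRE1 removes is shown because it is what separates the XBP1 forms, and the deposited table lists no peak in the coding sequence that holds it. It is written in capitals with 2 flanking bases on each side, from GENCODE 29 transcripts on GRCh38. The longer form, RefSeq NM_005080, has these 26 bases and NM_001079539 lacks them. The sequence around the junction allows 7 equivalent placements, of which 1 is printed.
XBP1 removed stretch: cgCAGCACTCAGACTACGTGCACCTCTGca

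Ago2 finds most targets through the microRNA seed, bases 2 to 8 counted from the 5′ end, so the seeds of 6 microRNA families that are common in human cell lines were searched in the 3' untranslated regions (UTRs) where 17 of the 37 peaks lie. MicroRNA levels were not analysed here. The mature sequences are from RefSeq (GRCh38.p14), with the seed in capitals.
hsa-let-7a-5p: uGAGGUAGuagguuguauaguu
hsa-miR-17-5p: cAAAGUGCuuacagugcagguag
hsa-miR-16-5p: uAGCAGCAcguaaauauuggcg
hsa-miR-19b-3p: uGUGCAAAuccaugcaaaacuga
hsa-miR-92a-3p: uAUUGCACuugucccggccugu
hsa-miR-30a-5p: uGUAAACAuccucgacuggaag

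The matches searched, on the message strand only, were CTACCTC for let-7, GCACTTT for miR-17, TGCTGCT for miR-16, TTTGCAC for miR-19, GTGCAAT for miR-92 and TGTTTAC for miR-30. All 5 genes were matched to a GENCODE 29 transcript through their RefSeq accession. For XBP1 this was the form that lacks the removed stretch, and the 3' UTR of the longer form was not searched. XBP1 (3' UTR of 615 bases), MANF (308 bases) and CANX (2281 bases) had no match to any of the 6. Among 2194 3' UTRs within 20% of the length of that of CANX, between 12.1% (let-7) and 32.5% (miR-17) held a match. Most 3' UTRs as short as those of XBP1 and MANF also lacked each match. For XBP1, between 3.28% (miR-92) and 11% (miR-16) of 1921 of like length held one. For MANF, it was between 1.22% (miR-92) and 6.18% (miR-16) of 1472. SEL1L (5423 bases) had 1 match each for miR-16, miR-19 and miR-92, which 51.1%, 39.2% and 31.6% of 959 3' UTRs of like length also held. CREB3L2 (5497 bases) had 1 for let-7, 3 for miR-19 and 2 for miR-92, against 27.0%, 39.2% and 31.8% of 931 with at least 1. The sites below are the single let-7 match of CREB3L2 and the matches that SEL1L has for miR-19 and miR-92, families that CREB3L2 also matches, with capitals for the seed match and positions counted from the base after the stop codon.
CREB3L2 let-7 match, bases 1164 to 1170: tgtcctcctcgtcccCTACCTCaacaaagc
SEL1L miR-19 match, bases 945 to 951: tactttgcatttcttTTTGCACaaagaaca
SEL1L miR-92 match, bases 4508 to 4514: gaacatgtacacaaaGTGCAATtggaagtg

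These letters describe the transcripts, and whether a peak covers a match was not examined, because the peaks are in hg19 coordinates and the transcripts are on GRCh38.

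The deposited table gives no column per library, and the reads of each library were recovered from its 2 values per peak. Reads were recovered for 22488 peaks, all 37 peaks of these genes included. The 6 CLIP libraries held 39555 to 117303 reads in listed peaks, and 26 to 235 of those lay in the 37 peaks. The recovered libraries carry no antibody name and are numbered within each treatment by the falling value of 1 read. Library 1 of each treatment stood apart, with 45.5% (emetine) and 42.9% (control) of its reads in noncoding exons against 6.15% to 13.4% in the other libraries. Libraries of the same number were alike in this share across the treatments, with 6.15% and 6.30% in library 2 and 13.4% and 12.8% in library 3 (emetine and control), though nothing in the table ties them to an antibody. Of 6 genes known from this kidney-derived lineage, 3 (NEFL, EYA1 and CDH2) had a peak, and of 10 genes of blood, liver, fibroblast and endothelial cells none did. Normalised reads are reads multiplied by the authors' factor for the library. All recovered peaks held at least 11 reads over the 6 libraries, so a peak read in only 1 treatment owes its place in the table to that treatment.

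None of the 37 peaks passed an adjusted p of 0.05 by limma on log2(normalised reads + 1), and over all 22488 peaks the share was 0.00%. At an unadjusted p under 0.05 there was 1 of the 37, a peak of CANX, against 1.06% of all peaks. That peak was also the only 1 of the 37 whose treatments did not overlap, and it was lower with emetine, a pattern that 1.43% of all peaks had. No peak of these genes had all emetine libraries above all control libraries, against 2.54% of all peaks. The fitted log2 difference was above 0 in 15 peaks and below 0 in 22, with a median of -0.54 against 0.01 over all peaks. Over all peaks 49.8% were below 0. These counts are mostly those of CANX, with 9 peaks above 0, 17 below and a median of -0.55. CREB3L2 had 2 above and 4 below, and the XBP1 peak was below. Both SEL1L peaks and both MANF peaks were above 0. Peaks of 1 gene are not independent, and some CANX peaks share reads.

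The peaks lay more often in coding sequence than the table as a whole. Coding sequence held 20 of the 37 (54.1%) against 33.2% of all peaks, and the 3' UTR held 17 (45.9%) against 57.6%. CANX accounts for 18 of the 20 coding peaks, and SEL1L and MANF have 1 each. XBP1 and CREB3L2 had peaks in the 3' UTR only.

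Relative to the gene's RNA, CANX had little Ago2 binding per peak and the other genes had values nearer the middle of the table. In the authors' deposited table the average is Ago2 signal relative to RNA, and on the log2 scale its median over all peaks is -8.57. The 26 CANX peaks lie between -14.0 and -11.1 in the authors' deposited table, at percentiles 0.809 to 7.97 of all peaks. The XBP1 peak is at -9.51, the SEL1L peaks at -10.1 and -8.59, the MANF peaks at -7.89 and -7.20, and the CREB3L2 peaks between -9.06 and -8.37 in the authors' deposited table. The RNA is the denominator of this average, and by RNA reads CANX is at percentile 99.8 of the genes, SEL1L at 80.0, XBP1 at 70.7, CREB3L2 at 70.0 and MANF at 59.0.

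**Figure D1:**
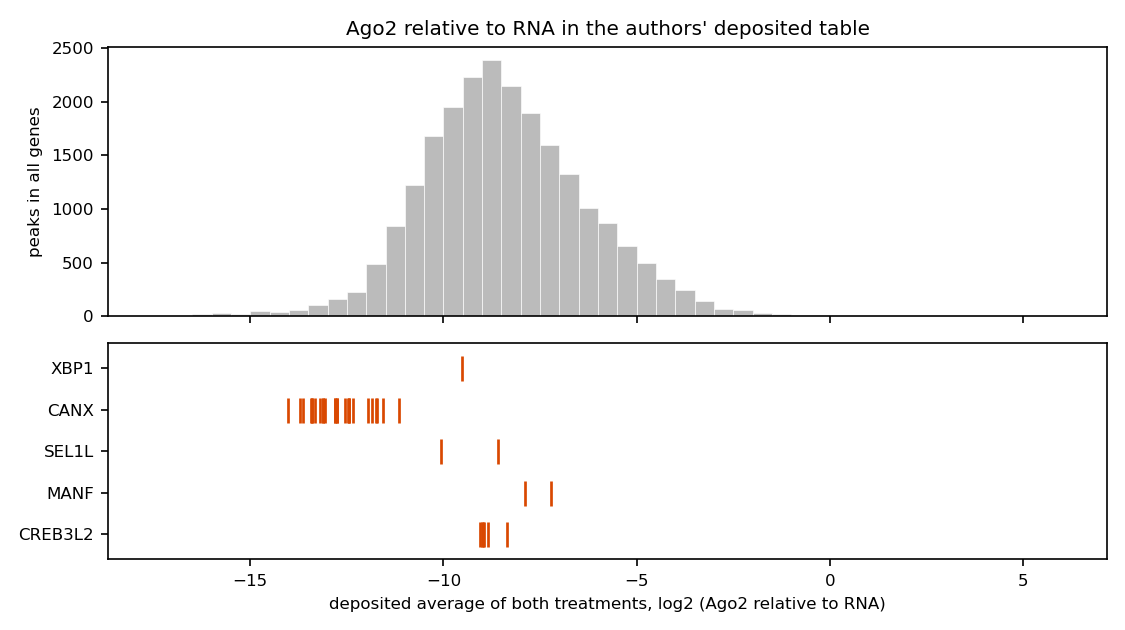
Deposited average per peak (Ago2 relative to RNA, log2 scale) for the peaks of the 5 genes, with the distribution over all peaks for comparison. The 26 CANX peaks sit between -14.0 and -11.1, below the median of all peaks at -8.57.

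Summed over its peaks, SEL1L was the only 1 of the 5 genes whose treatments did not overlap, with more Ago2 reads after emetine, and 3.00% of all 6310 genes had that pattern. The SEL1L sum in emetine library 3 comes wholly from a coding peak that is listed only through those reads. None of the 5 had all emetine libraries below all control libraries, against 2.19% of all genes. No gene of the 5 passed limma's adjusted p of 0.05, nor did any of all genes (0.00%). At an unadjusted p under 0.05 none of the 5 was called, against 1.85% of all genes. With the library number as a further term, SEL1L alone had an unadjusted p under 0.05 (limma adjusted p = 0.749), against 3.52% of all genes. With library 1 of both treatments left out, CANX alone did (limma adjusted p = 0.634), against 2.68%. Compared number by number, SEL1L was higher with emetine in all 3 comparisons, as were 7.89% of all genes, and CREB3L2 was lower in all 3, as were 5.44%.

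**Figure D2:**
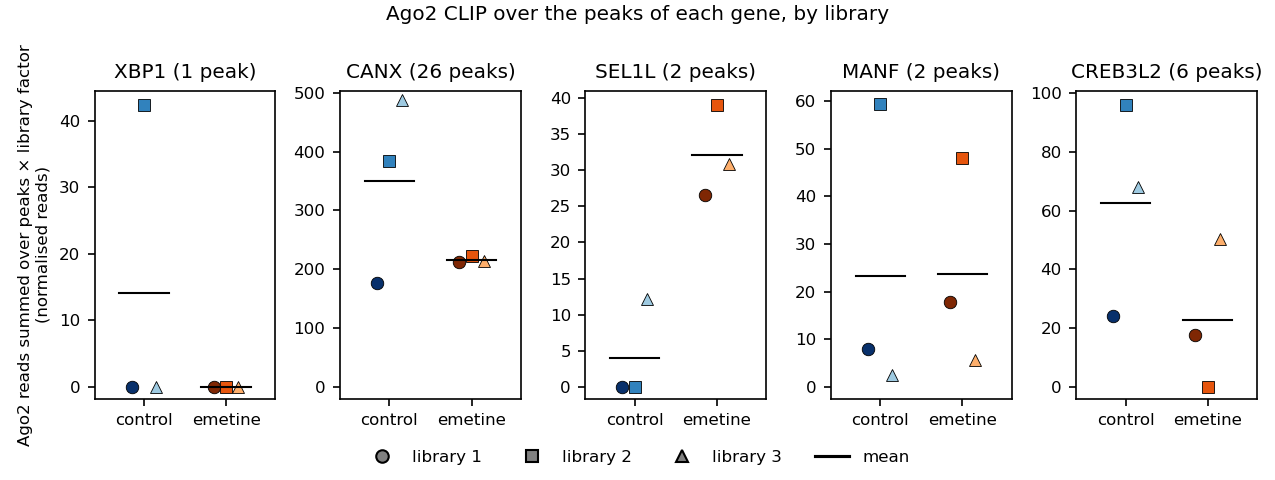
Normalised Ago2 reads summed over the peaks of each gene, 1 point per CLIP library, with a line at the mean of the 3 libraries of each treatment. The SEL1L points with emetine (26.6 to 39.0) all lie above the control points (0 to 12.1), and the points of the other 4 genes overlap.

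XBP1, the transcription factor made from the spliced message, had Ago2 reads in a single control library. Its peak lies in the 3' UTR at chr22:29190617-29190645 on the minus strand (hg19). Control libraries 1, 2 and 3 held 0, 15 and 0 reads there and the 3 emetine libraries held 0. All its reads thus come from control library 2, where they amount to 42.3 normalised reads. Setting the emetine side to the limit that a count of 0 allows (3 reads over its 3 libraries) and taking the 15 control reads as exact, its total was at least 4.50-fold lower. That fold rests on the same reads that put the peak in the table. The limma log2 difference was -1.81 (SE 1.98, adjusted p = 0.799 over genes), and without control library 2 no read is left.

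CREB3L2, the membrane-bound transcription factor, held 3, 34 and 28 reads in control libraries 1, 2 and 3, and 2, 0 and 18 in the emetine libraries in that order. Normalised, the control values were 24.0, 96.0 and 68.0 against 17.7, 0 and 50.5 after emetine. Each emetine library lies below the control library of its number, but the treatments overlap, because emetine library 3 lies above control library 1. The emetine mean was 22.7 ± 25.6 (SD, n = 3) against a control mean of 62.6 ± 36.3 (SD, n = 3). The scaled ratio of read totals was 0.342 (exact binomial 95% interval 0.196 to 0.572, counting error only), and the limma log2 difference was -2.48 (SE 1.68, adjusted p = 0.799).

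The 6 CREB3L2 peaks, numbered along the transcript on the minus strand of chromosome 7, did not differ in the same direction. Peak 3 (chr7:137563055-137563081) held no emetine read and 0, 14 and 3 control reads, at least 5.10-fold lower over the totals. Peak 4 (chr7:137562954-137562983) held no emetine read and 1, 0 and 11 control reads, at least 3.60-fold lower. These neighbours were read in different control libraries, peak 3 mainly in library 2 and peak 4 mainly in library 3. Peak 2 (chr7:137563380-137563415) held 1, 0 and 0 emetine reads against 2, 9 and 0. Peak 5 (chr7:137562515-137562536) held 1, 0 and 0 against 0, 11 and 0. Peak 1 (chr7:137564914-137564946) and peak 6 (chr7:137560933-137560964), at the ends of the bound stretch, were read only in library 3 of each treatment. They held 11 reads with emetine against 7 in the control, and 7 against 7. The limma log2 differences of the 6 peaks in this order were 0.28, -1.84, -2.80, -2.65, -0.57 and 0.07.

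CANX, the glycoprotein chaperone, held most of the Ago2 reads of the 5 genes. Its 26 peaks together held 22, 136 and 201 reads in the control libraries, in their order, and 24, 74 and 76 in the emetine libraries. Normalised, the emetine libraries were close to each other at 213, 222 and 213, and the control libraries were spread at 176, 384 and 488. Control library 1 lies below all emetine libraries and the other control libraries lie above them, so the treatments overlap. The emetine mean was 216 ± 5.34 (SD, n = 3) against a control mean of 349 ± 159 (SD, n = 3). The scaled ratio of totals was 0.539 (0.447 to 0.647, counting error only), while the limma log2 difference was -0.57 (SE 0.66, adjusted p = 0.799). With library 1 of both treatments left out, an alternative chosen after seeing the data, it was -0.99 (SE 0.39, limma adjusted p = 0.634).

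The ratio of emetine to control reads was lower over the coding peaks of CANX than over its 3' UTR peaks, with intervals that overlap. The 18 coding peaks held 14, 69 and 17 emetine reads against 18, 86 and 141, a scaled ratio of 0.454 (0.356 to 0.575). The 8 3' UTR peaks held 10, 5 and 59 reads against 4, 50 and 60, a ratio of 0.721 (0.531 to 0.975). Emetine library 2 was read almost wholly in coding peaks and emetine library 3 mostly in the 3' UTR. The coding share of CANX reads was 58.3%, 93.2% and 22.4% in the emetine libraries against 81.8%, 63.2% and 70.1%. The means, 58.0% ± 35.4 (SD, n = 3) and 71.7% ± 9.39 (SD, n = 3), differed by -13.8 percentage points, which is within the spread (two-sided exact permutation p = 0.6, with 0.1 the smallest that 3 against 3 allows). Over all genes the same share had an emetine mean of 36.0% ± 1.62 (SD, n = 3) and a control mean of 31.3% ± 3.48 (SD, n = 3). Per kilobase of transcript, CANX held 10.1 peaks in coding sequence and 3.51 in the 3' UTR.

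Among single CANX peaks, numbered 1 to 26 along the plus strand of chromosome 5, those with reads in 1 treatment only pointed in different directions. Peak 12, coding, at chr5:179149981-179150020, held no emetine read and 4, 25 and 4 control reads. It was read in all control libraries, was at least 9.90-fold lower with emetine over the totals, and had a limma log2 difference of -4.88 (SE 2.03, adjusted p = 0.784). Peak 2, coding, at chr5:179135244-179135283, held 3, 17 and 0 emetine reads and no control read. It was at least 7.41-fold higher over the totals, with a limma log2 difference of 3.50 (SE 2.12, adjusted p = 0.784). In the authors' deposited table the ratios of these peaks, on the log2 scale, are -4.67 and 3.70, the lowest and highest of the gene. Peaks 14 (chr5:179150723-179150746) and 15 (chr5:179150728-179150780), both coding and overlapping each other, had 10 reads each in emetine library 2 only. In the control they held 1, 10 and 9 reads and 1, 23 and 9 reads, and their log2 differences were -2.53 and -2.92. Peak 13, coding, next to them at chr5:179150673-179150712, held 0, 5 and 1 emetine reads against 1, 0 and 16, a log2 difference of -0.85.

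The CANX peak with the most reads, 48 over the 6 libraries, was peak 20 in the 3' UTR at chr5:179156286-179156344. It held 0, 3 and 9 emetine reads against 0, 25 and 11, so emetine and control overlap (log2 -0.97). Peak 23, also 3' UTR, at chr5:179156806-179156836, held 0, 1 and 13 emetine reads against 0, 0 and 15 (log2 0.67). The CANX peaks not described one by one held 11 to 23 reads each. Neighbouring peaks overlapped 4 times along the gene, and peaks 6 and 7 held identical reads. Counting that pair once gave 173 emetine and 340 control reads, a ratio of 0.565 (0.468 to 0.681).

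**Figure D3:**
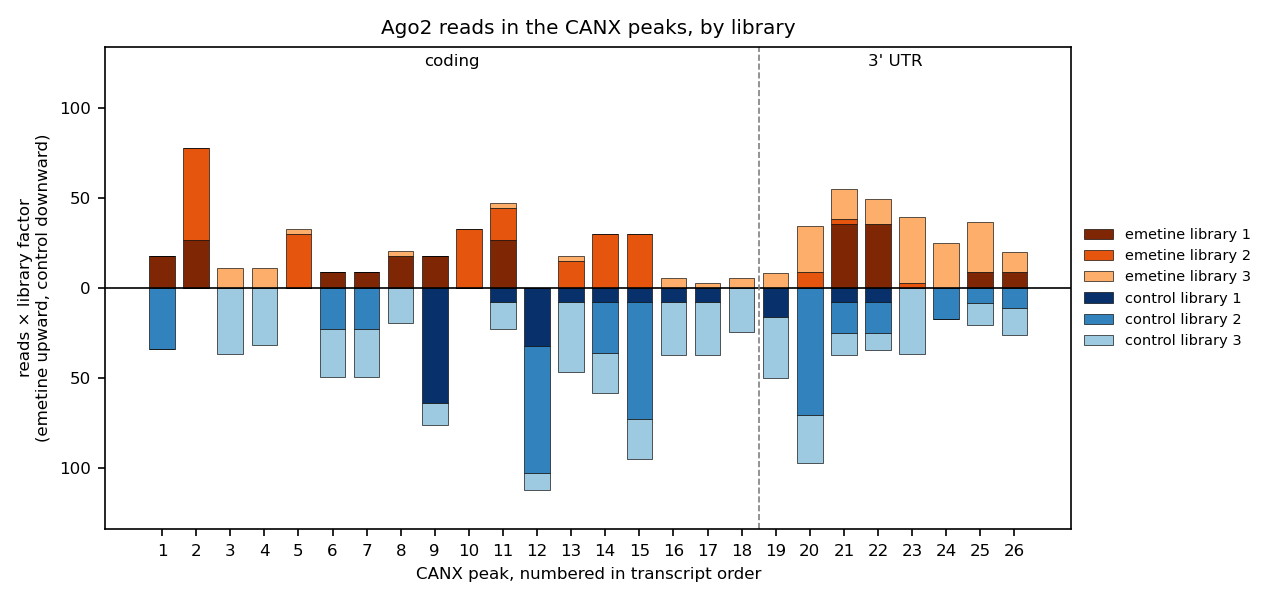
Normalised Ago2 reads in each of the 26 CANX peaks in transcript order, with emetine drawn upward and control downward and a shade for each library. Peak 12 has control reads only, from all 3 libraries, and peak 2 has emetine reads only.

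MANF, the stress-responsive ER protein, had like totals in both treatments that came mostly from 1 library each. Its peaks held 2, 16 and 2 emetine reads against 1, 21 and 1 control reads. The mean normalised reads were 23.8 ± 21.9 (SD, n = 3) and 23.2 ± 31.3 (SD, n = 3), and the ratio of totals was 0.966 (0.503 to 1.84). The coding peak at chr3:51423725-51423757 on the plus strand held 2, 5 and 1 emetine reads against 0, 21 and 0. It was read in all emetine libraries but in control library 2 only, so its total was lower with emetine (ratio 0.423) while its limma log2 difference was 1.41. The 3' UTR peak at chr3:51426527-51426588 held 0, 11 and 1 against 1, 0 and 1, a ratio of 6.67 and a log2 difference of 0.69. The 2 peaks thus had totals that differed in opposite directions. The log2 difference of the gene was 0.57 (SE 1.93, limma adjusted p = 0.977), with a value of -0.14 without emetine library 2 and -0.35 without control library 3.

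SEL1L, the adaptor of ER-associated degradation, held 3, 13 and 11 emetine reads against 0, 0 and 5 control reads. Normalised, these were 26.6, 39.0 and 30.9 against 0, 0 and 12.1, and the treatments did not overlap. The emetine mean was 32.2 ± 6.33 (SD, n = 3) against a control mean of 4.04 ± 7.01 (SD, n = 3). The ratio of totals was 6.0 (2.28 to 20.0, counting error only). The limma log2 difference was 3.80 (SE 2.24) with an unadjusted p of 0.0905 and an adjusted p of 0.799.

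The separation of the SEL1L sums came from 2 peaks that were read in different emetine libraries. The coding peak at chr14:81950630-81950654 on the minus strand held 11 reads, all in emetine library 3, at least 4.07-fold higher over the totals. The 3' UTR peak at chr14:81941521-81941556 held 3, 13 and 0 emetine reads against 0, 0 and 5, a ratio of 3.56. The coding peak is listed only through its 11 emetine reads, so its fold is no test of a difference. The separation of the sums rests on that peak too. In library 3 the 3' UTR peak held 0 emetine reads against 5 control reads. Neither peak alone separated the treatments, and their log2 differences were 1.66 and 2.13.

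**Figure D4:**
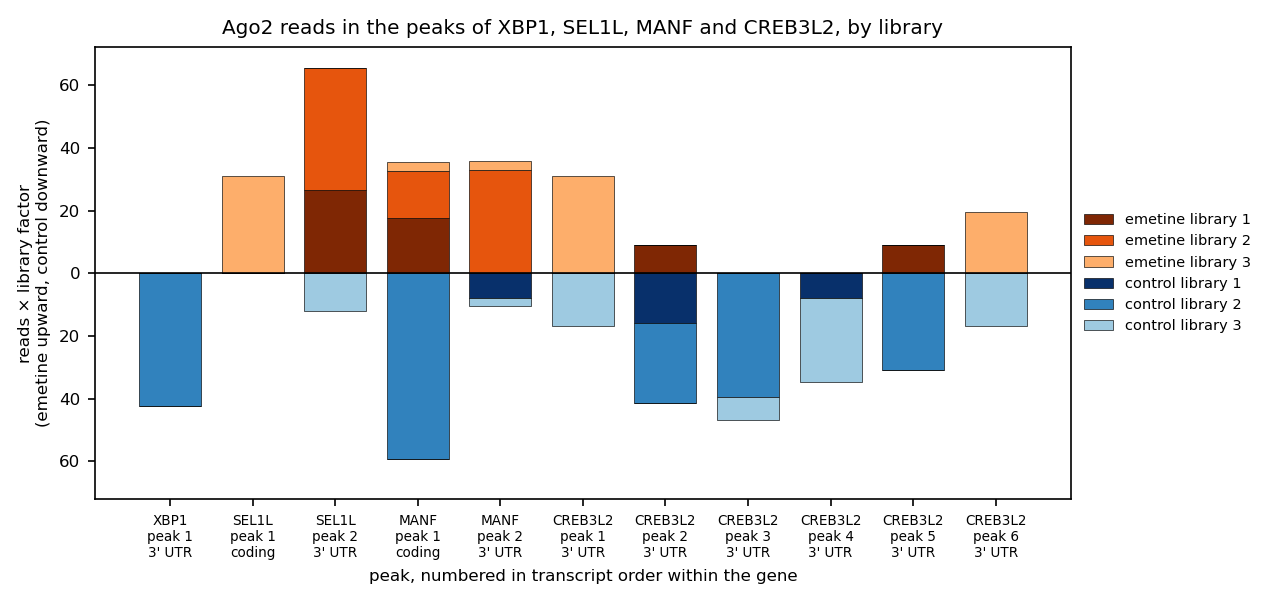
Normalised Ago2 reads in the peaks of XBP1, SEL1L, MANF and CREB3L2 in transcript order, with emetine drawn upward and control downward and a shade for each library. XBP1 has control reads from library 2 only, and SEL1L peak 1 has emetine reads from library 3 only.

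Within a treatment, the reads of many of these peaks came from a single library, as they did in the table as a whole. Of the 37, emetine reads came from 1 library in 19 (51.4%, against 41.2% of all peaks) and control reads from 1 library in 13 (35.1%, against 45.5%). A further 4 peaks (10.8%) had no emetine read, against 20.2% of all peaks, and 4 (10.8%) had no control read, against 17.7%. By read totals 13 peaks were higher and 24 lower with emetine, against 11051 and 11437 of all peaks. CANX gave 8 of the higher and 18 of the lower. In 2 peaks, 1 of MANF and 1 of CANX, the limma fit had the opposite sign.

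In the RNA libraries all 5 genes had log2 ratios below 0, without a replicate. The ratios are scaled between the libraries, so they set a gene against the other genes and give no amount of RNA per cell. XBP1 had the lowest ratio, with 429 reads in the emetine library and 272 in the control, a log2 ratio after scaling of -0.69 (exact binomial 95% interval -0.91 to -0.46, counting error only). CREB3L2, with 453 and 246 reads, was at -0.46 (-0.69 to -0.23), and MANF, with 333 and 167, at -0.35 (-0.62 to -0.07). CANX, with 11148 and 5049 reads, was at -0.20 (-0.25 to -0.15), and SEL1L, with 727 and 312, at -0.12 (-0.32 to 0.07). None of the 5 had a log2 RNA ratio above 1 or below -1, against 0.845% and 0.793% of all 5799 genes with at least 50 RNA reads. The interval lay wholly below 0 for 4 of the 5, which 13.7% of those 5799 genes had. Such an interval narrows with more reads, and the 5 held from 500 (MANF) to 16197 (CANX) over both libraries. The 13.7% covers genes with as few as 50, so the shares are not matched for depth. The ratios of XBP1 and CREB3L2 are at percentiles 2.71 and 6.97 of the 5799 genes, and that of SEL1L at 30.5. Scaling the RNA libraries to equal totals moved the median of all genes from 0.01 to 0.08 and left all 5 below 0, at -0.62 for XBP1 and -0.05 for SEL1L. The libraries held 3727663 (emetine) and 1540547 (control) reads over listed genes.

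The RNA level per length was far higher for CANX than for the other genes. In normalised reads per kilobase of transcript, the control library held 7651 for CANX, 967 for XBP1, 923 for MANF, 251 for SEL1L and 212 for CREB3L2. With emetine the values were 6651 for CANX, 725 for MANF, 600 for XBP1, 230 for SEL1L and 153 for CREB3L2. XBP1 was above MANF in the control library and below it in the emetine library, and with 1 library each the spread is unknown.

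**Figure D5:**
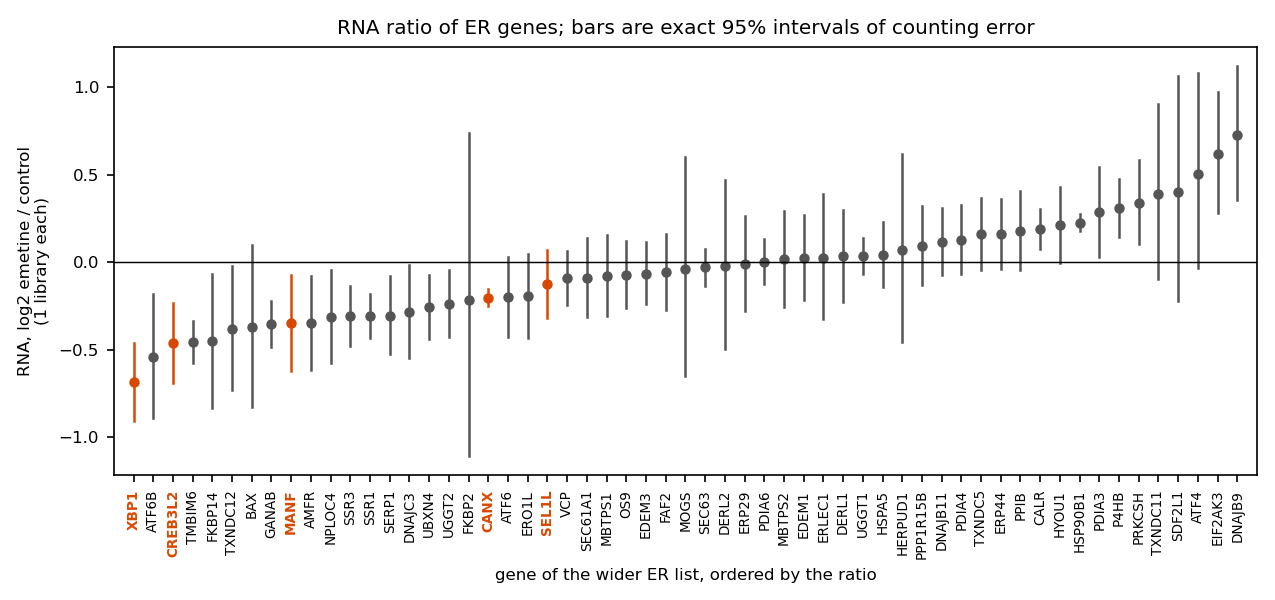
RNA ratio of emetine to control (log2 scale) for the 57 genes of the wider ER list with at least 50 RNA reads, the 5 genes included. There is 1 library per treatment, and the exact binomial 95% intervals cover counting error only. XBP1 is lowest at -0.69 and DNAJB9 highest at 0.73.

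A wider list of 83 genes of ER folding, stress signalling and degradation had 58 genes with a peak, these 5 included. The 260 peaks of the other 53 genes held 118 with a log2 difference above 0 and 142 below, with a median of -0.35 against 0.01 over all peaks. None of them passed limma's adjusted p of 0.05, and 3 had an unadjusted p under 0.05, against 1.06% of all peaks. Summed per gene, 24 of the 53 were above 0 and 29 below, with a median of -0.15 against 0.04 over all genes. The genes of the list with the most Ago2 reads, besides CANX, were TMBIM6, PPP1R15B, CALR, P4HB and SSR1. TMBIM6, a membrane protein that limits cell death, held 220 emetine reads against 450, a ratio of 0.543 (0.460 to 0.640), with a limma log2 difference of -0.57 (SE 0.62). P4HB, a protein disulfide isomerase, held 102 and 196, a ratio of 0.578 (0.451 to 0.738) and a log2 difference of -0.98 (SE 0.81). CALR, the soluble partner of calnexin, held 186 and 253, a ratio of 0.817 (0.672 to 0.991) and a log2 difference of -0.28 (SE 0.71). PPP1R15B held 288 and 365, a ratio of 0.877 with an interval that spans 1 (0.749 to 1.03) and a log2 difference of 0.01 (SE 0.59). SSR1, a subunit of the translocon-associated complex, held 104 and 137, a ratio of 0.844 with an interval that spans 1 (0.647 to 1.1), and its log2 difference had the opposite sign at 0.33 (SE 0.98).

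The RNA ratios of the wider list lay on both sides of 0. Of 52 genes besides the 5, 27 (51.9%) were below 0 with a median of -0.02, against 49.0% of all genes and a median of 0.01. The interval lay wholly below 0 for 13 of them (25%), against 13.7% of all genes, shares that are not matched for RNA depth either. The highest ratios were those of DNAJB9, an ER co-chaperone, at 0.73 (0.35 to 1.12), EIF2AK3, which encodes PERK, at 0.62 (0.28 to 0.98), and ATF4, a transcription factor downstream of PERK, at 0.51 (-0.03 to 1.08). The lowest were XBP1, ATF6B, a relative of ATF6, at -0.54 (-0.89 to -0.18), and CREB3L2. The list was drawn up with earlier results of these data known.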

How the data were processed

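The 5 genes, the wider ER list and the tests were chosen with earlier results of these data known. The deposited table holds, per the file headers, each peak's position, strand, region, gene and transcript, with an average and a treated-to-untreated ratio, both normalised. The authors deposited these as logarithms without naming the base, and the natural log was inferred, since whole reads were recovered with it. The submitters' processing notes name hg19, Bowtie 0.12.8, TopHat and DESeq, without roles.

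From the average and the ratio, a value per treatment was formed. It equals the mean over 3 CLIP libraries of the natural log of 1 plus reads times a library factor, less the same for RNA. Whole reads and factors that gave this value within 2e-13 were searched, and were found for 22488 of 22506 peaks (99.9%) in both treatments. For each transcript 1 RNA read number was kept, the one matched by the most peaks, with ties going to the fewest reads. Given that number, no peak had more than 1 solution. Uniqueness before this choice does not follow: for CANX with emetine, 25 of 26 peaks had 1 match and 2 RNA numbers were matched. Of 4707 values shifted at random, 11 (emetine) and 3 (control) were matched. The recovered numbers are an inference from logarithms, so no count model was run. The recovery and the fit were tested on simulated data. Factors were 8.86, 3.00 and 2.81 (emetine), 8.00, 2.82 and 2.43 (control), and 2.51 and 6.37 for RNA.

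Peaks, and sums per gene, were tested with limma 3.58.1 in R 4.3.3, with trend, on log2(reads × factor + 1), treatment alone, and Benjamini-Hochberg adjustment over all peaks or genes. Read totals were compared as ratios after scaling by the factors, with exact binomial 95% intervals from scipy 1.17.1. A treatment without reads was set to a floor of 3 reads over 3 libraries, and the reads of the other treatment were taken as exact. Such a fold is drawn from the reads that put the peak in the table, so it is no test of a difference. Intervals and floors cover counting error only. RNA had 1 library per treatment and no test. The peaks named are all peaks of a gene with 6 or fewer, and otherwise the 6 with the most reads and those with the highest and lowest deposited ratio. From the wider list, the 6 genes with the most Ago2 reads and those with the 3 highest and 3 lowest RNA ratios are named. Alternatives were other constants (0.5 and 5), equal-total scaling, a filter on reads in at least 3 libraries, limma-voom, the library number (depth class) as a term, identical peaks counted once, and leaving out libraries. The sequence of the peaks was not read, since no hg19 genome was used.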

Additional observations from a re-analysis of the deposited data

How the results depend on the processing

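None of the 37 peaks and none of the 5 genes passed limma's adjusted p of 0.05 under any setting reported. The smallest limma adjusted p was 0.656 over peaks and 0.634 over genes. Limma-voom on gene sums is not among these settings. Over all peaks the count past the threshold was 0, and it was 2 with the library number (depth class) as a term. With 1 library left out at a time, the limma log2 difference ran from -0.35 to 1.72 for MANF, which reversed, from -2.72 to 0.00 for XBP1, from -1.0 to -0.27 for CANX, from 3.18 to 5.03 for SEL1L and from -3.67 to -0.83 for CREB3L2. The CANX coding share difference ran from -31.4 to 4.05 percentage points and reversed without emetine library 3. Of the 18 named peaks, 7 reversed when 1 library was left out. Their ranges were -2.27 to 0.39 (CANX peak 13), -2.80 to 0.37 (CANX peak 20), -0.74 to 2.41 (CANX peak 23), -0.68 to 1.86 (MANF peak 2), -1.39 to 1.66 (CREB3L2 peak 1), -1.67 to 1.1 (CREB3L2 peak 5) and -1.39 to 1.46 (CREB3L2 peak 6). With library 1 of both treatments left out, chosen after seeing the data, CANX peak 13 reversed to 0.31. The cause of these reversals was not tested. The median of the wider ER list ran from -0.72 to 0.11 with 1 library left out, against -0.36. Scaling RNA to equal totals moved CANX to -0.13. The XBP1 peak has no value under the filter on 3 libraries. The limma-voom fit on gene sums was run but left out, because its mean-variance trend fell below 0. No analysis paired by antibody was possible, because the recovered libraries carry no antibody or replicate number from the labels. The term for the library number pairs them by their order in the value of 1 read instead. Each number occurs once per treatment, so this term cannot change a log2 difference and says nothing on its stability. Only the SEs could differ, and for the 5 genes they were 0.40 to 2.04. The described peaks held 11 to 48 reads, and whether depth or the spread between libraries limits the test of single peaks was not tested.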
